A study of Mus musculus with 2 samples.

Results

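Islet endothelial cells line the capillaries of the pancreatic islet, and 109 barcodes of 9423 kept barcodes were taken as such cells in a single-cell RNA-sequencing data set of mouse islets. A barcode, which tags the transcripts of 1 droplet, was kept when more than 1000 genes were detected and under 10% of its UMIs (unique molecular identifiers, each marking 1 captured transcript) came from mitochondrial genes. A kept barcode was an endothelial cell when at least 4 of the 6 markers Pecam1, Cdh5, Plvap, Kdr, Flt1 and Esam had a UMI and when Ins1, Ins2, Gcg, Sst and Ppy together gave under 500 UMIs per 10000. The levels of these markers and hormones chose the cells and are therefore given as a description, as are all comparisons of endothelial cells with the other barcodes.

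The study addressed what loss of TBL1X and TBL1XR1, subunits of nuclear receptor corepressor complexes, does to β-cells. Mice of the TBL/RβKO group carried Cre recombinase inserted at the endogenous Ins1 locus together with loxP-flanked (fl/fl) TBL1X and TBL1XR1, while the control group, labelled wildtype, consisted of littermates without Cre. All mice were 5 weeks old and of the C57BL/6N strain. Each group gave 1 library, made from 150 islets pooled over 4 mice, cultured overnight at 11 mM glucose and dissociated with TrypLE before loading on a 10x 3′ v3.1 chip. Cre driven from Ins1 is restricted to β-cells, so that the deletion was not directed at endothelial cells.

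Islet capillaries are fenestrated: their cells are perforated by pores closed with a diaphragm, which lets hormones pass quickly into blood. They are maintained by VEGF-A from endocrine cells acting on the receptor VEGFR2 (Kdr), and they lay down the basement membrane on which β-cells rest. In other tissues, endothelial tip cells lead new sprouts and secrete apelin, while a continuous barrier depends on claudin-5 at tight junctions.

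With 1 library per group, no difference could be tested and no p-value is given. Genotype, library, pool of mice and dissociation cannot be told apart. Levels are UMIs summed over the endothelial cells of a library and expressed per 1000000 UMIs of those cells (CPM), ratios are log2 of TBL/RβKO over control, and all 95% intervals (Poisson for a level, conditional binomial for a ratio, Clopper-Pearson for a share, and a limit of 3 counts where a share is 0) cover counting error only.

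The control library held 7067 barcodes and the TBL/RβKO library 5833. Of 4961 kept control barcodes, 62 were endothelial cells (1.25%, interval 0.959 to 1.60%), and of 4462 in the TBL/RβKO library, 47 were (1.05%, interval 0.775 to 1.40%). The difference between these shares was within their intervals. Among barcodes under the hormone limit the endothelial share was 18.9% of 328 in control and 5.53% of 850 in the TBL/RβKO library. However, hormone transcripts, which set this denominator, were themselves lower there. The barcodes called hormone barcodes below had at least 500 hormone UMIs per 10000 and at most 1 of the 6 endothelial markers. Their median was 4344 hormone UMIs per 10000 in control and 1855 in the TBL/RβKO library. Endothelial cells made up 41.9% of 148 control barcodes that were endothelial, macrophage-like or stromal-like (interval 33.8 to 50.3%), and 24.5% of 192 in the TBL/RβKO library (interval 18.6 to 31.2%). Macrophage-like barcodes numbered 67 and 53, and stromal-like barcodes 19 and 92, so that the lower share accompanied a larger number of stromal-like cells.

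The selection was sharp in control and less so in the TBL/RβKO library. All 6 markers were seen in 60 control cells and 5 markers in 2, whereas in the TBL/RβKO library 40 cells had 6, 5 cells had 5 and 2 cells had 4 markers. Just outside the rule, 1 control barcode had 3 markers with 5 marker UMIs in all, and 8 barcodes of the TBL/RβKO library had 3 markers with a median of 9.5 marker UMIs, compared with medians of 174.5 and 103 inside the rule. The endothelial cell nearest to the hormone limit had 429 hormone UMIs per 10000 in control and 211 in the TBL/RβKO library, and the nearest barcode past it had 520 and 1437.

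Depth differed between the groups. Control endothelial cells had a median of 23780.5 UMIs and 5574 genes (range 6411 to 77763 UMIs), and TBL/RβKO endothelial cells 11018 UMIs and 3692 genes (1851 to 51680 UMIs). When each cell was thinned at random to 3000 UMIs, the median number of genes was 1763.5 (n = 62) and 1702.5 (n = 44, 3 shallower cells being left out). The median mitochondrial share was 1.57% and 2.05%.

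Transcripts of mural cells, the pericytes and smooth muscle cells that wrap capillaries, also moved with the group. A UMI of Pdgfrb, Cspg4, Rgs5 or Des was present in 37 of 62 control endothelial cells (59.7%, interval 46.4 to 71.9%) and in 10 of 47 TBL/RβKO endothelial cells (21.3%, interval 10.7 to 35.7%). Cells with such a UMI were deeper, with a median of 36271 UMIs in control and 34558.5 in TBL/RβKO, against 10886 and 9324 in cells without. At a matched depth of 6000 to 20000 UMIs the share was 7 of 26 (26.9%) in control and 1 of 30 (3.33%) in TBL/RβKO. The 6 markers gave a median of 86.5 UMIs per 10000 with and 89.1 without them in control, and 80.5 and 84.1 in TBL/RβKO. Whether the barcodes with mural UMIs were doublets of an endothelial and a mural cell was not tested. The matrix Gla protein transcript Mgp, at 9252 CPM in control and 3952 CPM in TBL/RβKO, was likewise seen in 33 of the 37 control cells with mural UMIs and in none of the 25 without. In TBL/RβKO it was seen in 8 of the 10 cells with mural UMIs and in 3 of the 37 without, which held 74 Mgp UMIs. Values for the 25 control and 37 TBL/RβKO endothelial cells without a mural UMI are therefore given beside many, but not all, of the genes named below. The part of mural transcripts and of depth in the results over all cells was otherwise not tested.

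**Figure D1:**
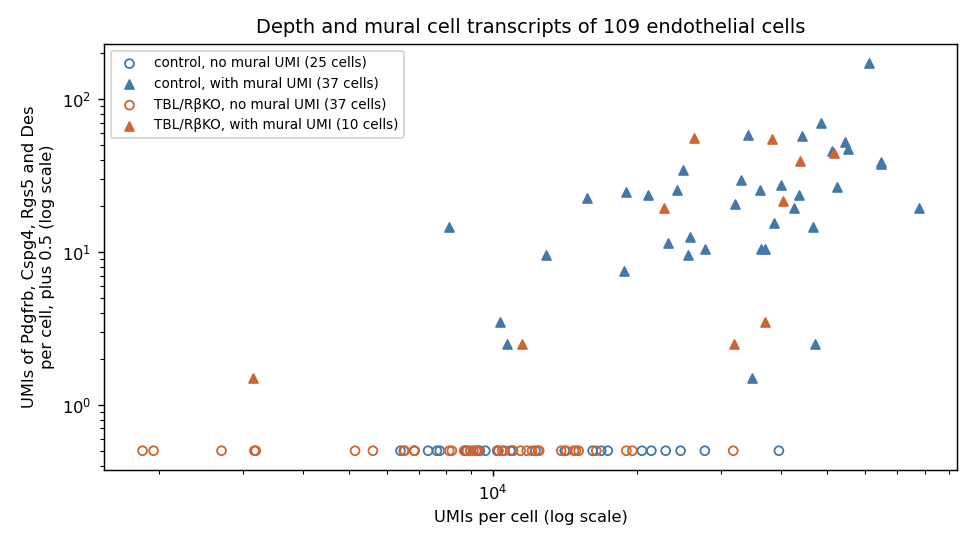
UMIs per cell (horizontal, log scale) against summed UMIs of the mural genes Pdgfrb, Cspg4, Rgs5 and Des plus 0.5 (vertical, log scale) for 62 control (blue) and 47 TBL/RβKO (orange) endothelial cells. Filled triangles, the 37 control and 10 TBL/RβKO cells with a mural UMI, lie mostly among the deepest cells.

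Genes that the rule did not use also bore the endothelial label, with the limit that the barcodes compared were selected on related genes. Of 3741 genes with at least 50 CPM in the endothelial cells of both libraries, 469 were at least 10 times and 198 at least 50 times as high as in all other kept barcodes, in both libraries. The 20 genes leading by this ratio included the transcription factors Erg, Sox7, Sox17 and Sox18, which specify endothelial fate, and the receptors Robo4, Tie1, Flt4 (VEGFR3) and Cd93. Pcdh12, an endothelial protocadherin, led the list at 63.9 CPM in control and 53.6 CPM in TBL/RβKO endothelial cells, which was 1841 and 1893 times the level in the other barcodes. Levels in the 2 groups were close for most of the 20: Erg was at 287 and 326 CPM, Sox18 at 318 and 321 CPM, Tie1 at 144 and 148 CPM and Myct1 at 664 and 664 CPM. Igfbp3, an IGF-binding protein secreted by endothelium, differed most among them (1614 and 2539 CPM, log2 ratio 0.65, interval 0.57 to 0.74).

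A list of 25 other endothelial markers, from Emcn and Egfl7 to Ramp2, was present at a median of 22 genes per cell in both groups. The rule markers themselves ranged from a log2 ratio of -0.30 (Kdr, 1807 and 1472 CPM) to 0.40 (Pecam1, 1150 and 1516 CPM). Kdr was at 0.09 CPM in hormone barcodes of control and 0.0317 CPM in those of TBL/RβKO. Because hormone barcodes were allowed at most 1 of the 6 markers, low levels of endothelial genes there were in part set by that choice. No control cell (0 of 62, which allows a share of up to 4.84%) and no TBL/RβKO cell (0 of 47, up to 6.38%) carried 3 or more of 8 lymphatic markers. Acinar genes had no UMI in either group, and B and T cell markers summed to 1.76 and 2.90 CPM.

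**Figure D2:**
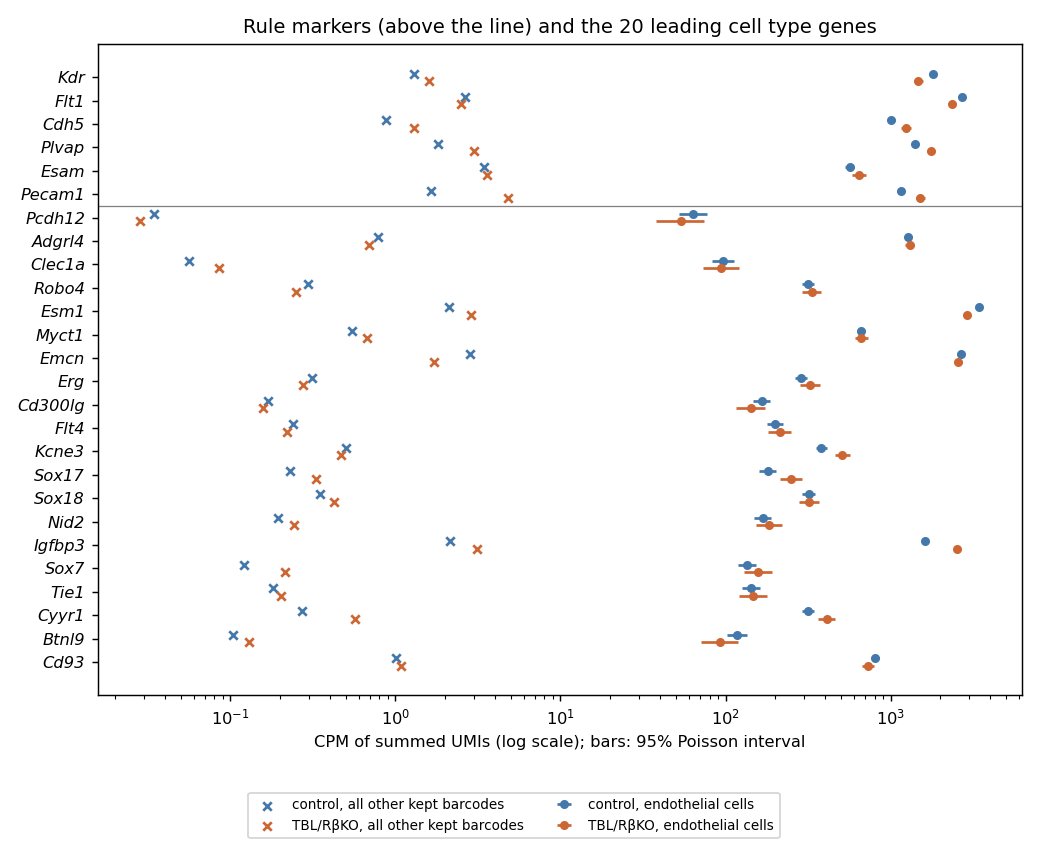
CPM on a log scale of the 6 rule markers (above the line) and the 20 genes with the highest endothelial-to-rest ratio, in endothelial cells (dots with 95% Poisson intervals) and in all other kept barcodes (crosses) of control (blue) and TBL/RβKO (orange). Every dot lies more than 100-fold to the right of its cross, and the dots of both groups lie close together.

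Cre transcripts lay almost wholly outside the endothelial cells. Cre, which was added to the reference of the count matrices, had 0 UMIs in kept control barcodes and 3179 in kept TBL/RβKO barcodes, of which 1 fell in an endothelial cell. Endothelial cells contained Tbl1x at 145 CPM in control (247 UMIs) and 111 CPM in TBL/RβKO (77 UMIs), a log2 ratio of -0.38 (interval -0.77 to -0.00), and Tbl1xr1 at 32.8 and 52.1 CPM (56 and 36 UMIs), a log2 ratio of 0.67 (0.02 to 1.30). In β-cells of the same libraries Tbl1x stood at 95.3 and 340 CPM and Tbl1xr1 at 19.7 and 125 CPM. Both were higher and not lower in the library labelled TBL/RβKO. UMIs at the 3′ end of a transcript can lie outside a deleted exon, and the deleted exons are not given in the sources used here, so these counts do not check the deletion. The nuclear receptor corepressor Ncor1 was at 260 and 245 CPM (-0.09) and Gps2, a subunit of its complex, at 85.6 and 98.4 CPM (0.20).

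Between the groups, 4717 genes had at least 100 UMIs over both sets of endothelial cells. Their log2 ratios had a median of -0.02 and an SD of 0.41, and 90% of them lay between -0.63 and 0.48 (5th and 95th percentile). A difference of 2-fold or more was seen in 32 genes that were higher in TBL/RβKO (0.678%) and 85 that were lower (1.8%), together 2.48%. In cells without a mural UMI, 29 of the 32 higher genes still had at least 10 UMIs, of which 24 remained past 2-fold and 0 changed direction. Of the 85 lower genes, 56 had at least 10 UMIs there, 39 remained past 2-fold and 9 changed direction. Both sets of genes were chosen over all cells, and this subset is a part of them, with 25 of 62 control and 37 of 47 TBL/RβKO cells. Keeping the direction was thus in part set by the choice, and the 2 sets of counts do not measure the part of mural transcripts. In the control library, 18 of the 85 lower genes were highest in stromal-like and 15 in macrophage-like barcodes, against 37 that were highest in endothelial cells. Among the 29 higher genes with a UMI in both groups, 24 were highest in endothelial cells.

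In the VEGF and angiopoietin pathway 0 of 12 compared genes differed 2-fold, close to the 2.48% of all compared genes, and the median log2 ratio was 0.01. Smaller differences with intervals that excluded 0 were found in both directions. The angiopoietin receptor Tek was at 79.2 and 124 CPM (0.65, interval 0.25 to 1.05) and the co-receptor Nrp1 at 1160 and 819 CPM (-0.50, -0.63 to -0.36). The interval of the antagonist ligand Angpt2, at 477 and 463 CPM, held 0 (-0.04, -0.23 to 0.15). Vegfa, the ligand itself, was at 114 CPM in control β-cells and 148 CPM in those of TBL/RβKO, compared with 56.3 and 68.0 CPM in the endothelial cells. Pdgfb, by which endothelium recruits pericytes, was at 392 and 394 CPM in endothelial cells, while its receptor Pdgfrb was at 270 and 274 CPM in stromal-like barcodes.

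Basement membrane genes showed 0 of 13 past 2-fold (2.48% of all compared genes) and a median log2 ratio of -0.08. The collagen IV chain Col4a1 was at 3172 and 2791 CPM, Sparc, a collagen-binding matricellular protein, at 5544 and 6971 CPM, and the laminin chain Lama4 at 474 and 327 CPM (-0.53, interval -0.75 to -0.32). Of 8 integrin genes compared, 1 was 2-fold lower (1.8% of all compared genes were): Itga6, the α6 subunit that binds laminin, at 269 CPM in control and 119 CPM in TBL/RβKO (-1.18, -1.54 to -0.84). It was also lower in the cells without a mural UMI (-1.44) and, by less than 2-fold, at matched depth (-0.84).

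In 7 further lists 0 genes passed 2-fold, a count that the 2.48% of all compared genes does not set apart. These were immediate early genes (15 compared, median -0.06), cytosolic heat shock genes (10, median -0.06), BMP and TGF-β pathway genes (14, median 0.05), glycolysis and hypoxia genes (14, median -0.02), insulin and IGF receptor signalling genes (10, median 0.07), apoptosis genes (11, median 0.17) and proliferation genes (4, median 0.23). Fos was at 1463 and 1534 CPM and Jun at 1055 and 770 CPM. The insulin receptor Insr stood at 128 CPM in control and 194 CPM in TBL/RβKO (0.60, interval 0.27 to 0.91), and Foxo1, a transcription factor restrained by insulin signalling, at 118 and 182 CPM (0.63, 0.30 to 0.96).

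**Figure D3:**
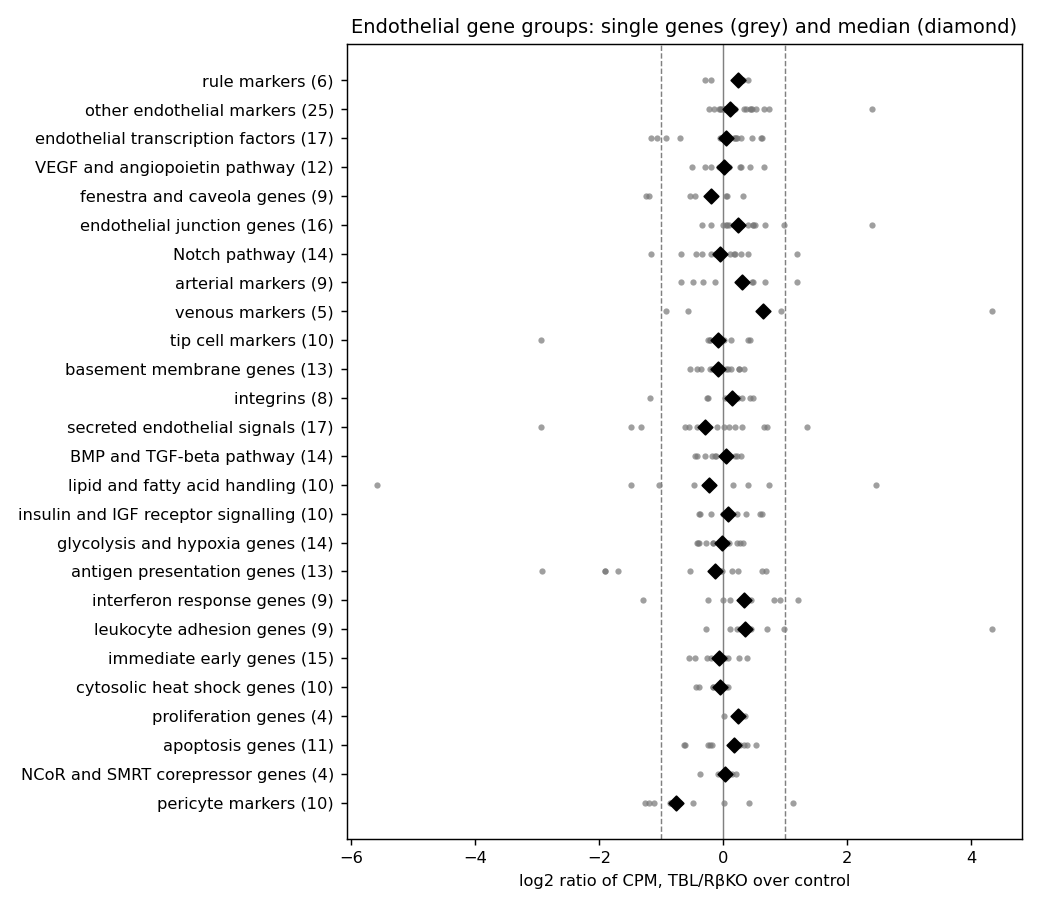
Log2 ratio of CPM, TBL/RβKO over control, for the compared genes of 26 gene lists (grey dots, number of genes in parentheses) with the median of each list (black diamond) and dashed lines at 2-fold. Most medians lie near 0, and single genes such as Cldn5, Apln and Aqp1 lie far from their lists.

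Cell junction genes had a median log2 ratio of 0.24 over 16 compared genes, with 1 of them 2-fold higher (0.678% of all compared genes were). That gene was Cldn5 (chr16:18595597-18597012 of GRCm39, plus strand), which encodes claudin-5, the tight junction protein of continuous endothelium. It had 76 UMIs in control (44.6 CPM, interval 35.1 to 55.8) and 163 in TBL/RβKO endothelial cells (236 CPM, interval 201 to 275), a log2 ratio of 2.40 (interval 2.00 to 2.82). Its UMIs came from few cells, 13 of 62 (21%) in control and 16 of 47 (34.0%) in TBL/RβKO, so that the median cell had none in either group. With cells thinned to 3000 UMIs, Cldn5 was detected in 4.84% of control (interval 1.01 to 13.5%) and 27.3% of TBL/RβKO endothelial cells (15.0 to 42.8%), and in 0 of 298 thinned hormone barcodes of each library, which allows a share of up to 1.01%. The ratio was 2.11 in cells without a mural UMI and 3.10 at matched depth. Jam2, a junctional adhesion molecule, was at 107 and 211 CPM (0.99, interval 0.66 to 1.31), and the VE-cadherin gene Cdh5, a rule marker, at 1008 and 1242 CPM (0.30).

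Aqp1 (chr6:55313068-55325540, plus strand) encodes the water channel aquaporin-1 of capillary endothelium and had the highest ratio of the genes named as higher. It was at 36.9 CPM in control (63 UMIs, interval 28.4 to 47.3) and 203 CPM in TBL/RβKO (140 UMIs, interval 170 to 239), a log2 ratio of 2.46 (2.02 to 2.91). Although 32.3% of control and 44.7% of TBL/RβKO cells had a UMI, after thinning the shares were 3.23% (interval 0.393 to 11.2%) and 38.6% (24.4 to 54.5%). The ratio was 2.45 without mural UMIs and 2.84 at matched depth, and the level in hormone barcodes was at most 0.146 CPM.

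Other genes at least 2-fold higher in TBL/RβKO endothelial cells came from several functions. Gda, guanine deaminase of purine breakdown, was at 41.6 and 143 CPM (1.78, interval 1.33 to 2.24), and its ratio was 2.19 without mural UMIs and 3.67 at matched depth. Pde7b, a cAMP phosphodiesterase, was at 66.8 and 199.8 CPM (1.58; 2.13 and 1.99 in the same subsets). Rnf125, a ubiquitin ligase, was at 48.1 and 155 CPM, the transporter Slc45a4 at 50.4 and 159 CPM and the sialyltransferase St8sia6 at 31.7 and 91.2 CPM. Rgs2, a regulator of G-protein signalling, was at 27.0 and 81.1 CPM (1.59), but its ratio was 0.84 (-0.23 to 1.98) without mural UMIs and 0.61 at matched depth. The transcription factor Ebf3 was at 28.1 and 76.7 CPM, with a ratio of 2.01 and 1.10 in these subsets.

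Cdk8, a kinase of the Mediator complex, was detected in 100% and 97.9% of endothelial cells, with medians of 3.39 UMIs per 10000 in control and 14.3 in TBL/RβKO. Its level was 311 and 1022 CPM (1.72, interval 1.55 to 1.88). The difference was not confined to endothelium, for hormone barcodes held 229 and 381 CPM. Its ratio was 1.29 without mural UMIs and 1.10 at matched depth, where the control level was 637 CPM.

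**Figure D4:**
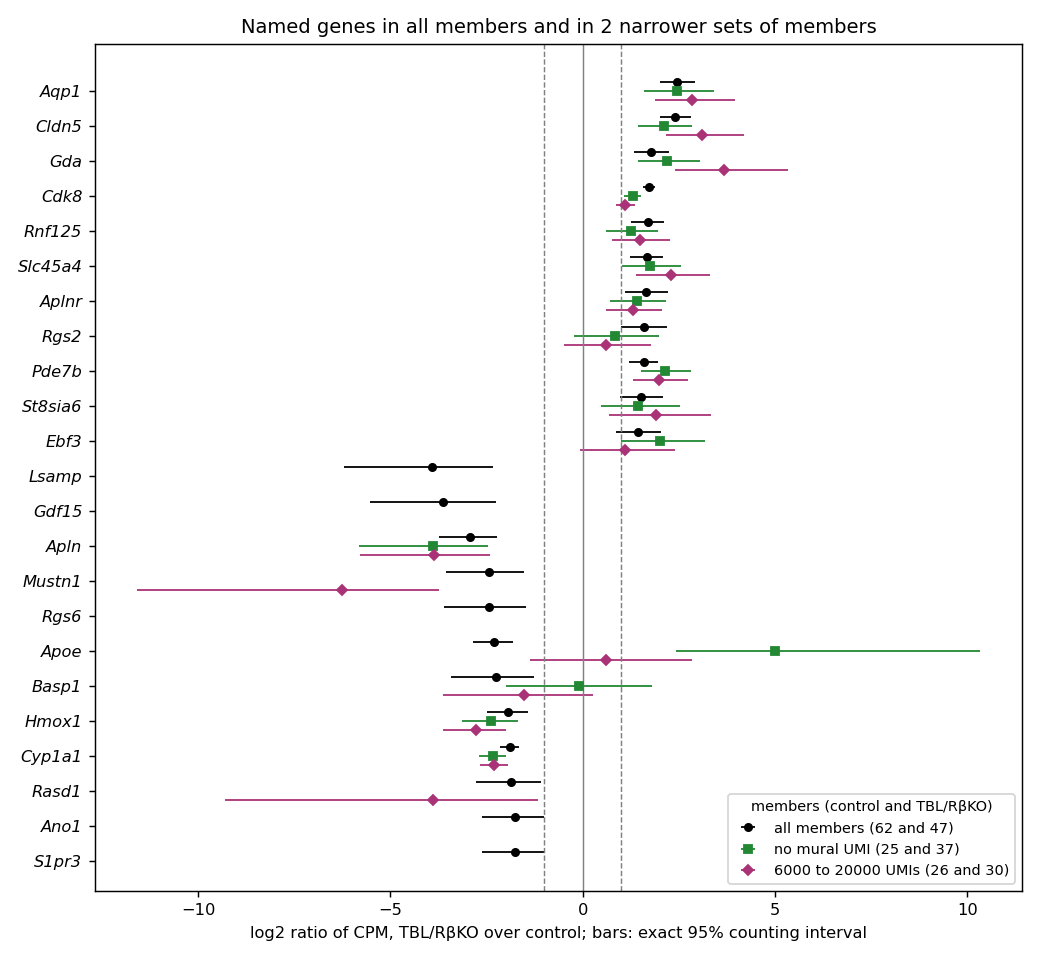
Log2 ratio of CPM, TBL/RβKO over control, with exact 95% counting intervals, for 11 of the genes named as higher and the 12 named as lower, over all endothelial cells (black), cells without a mural UMI (green) and cells of 6000 to 20000 UMIs (purple). Points are missing where a group had no UMI or too few UMIs. Cyp1a1, Apln and Hmox1 are lower in all 3 sets, while Apoe is lower only over all cells and Basp1 is at -0.10 without mural UMIs.

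Of the 12 genes named as lower in TBL/RβKO endothelial cells, Cyp1a1 had the most UMIs. It encodes a cytochrome P450 that is a standard target of the aryl hydrocarbon receptor (AHR), a ligand-activated transcription factor, and lies at chr9:57595211-57611107 (plus strand). Control endothelial cells had 1429 UMIs (838 CPM, interval 795 to 883) and TBL/RβKO endothelial cells 155 (224 CPM, interval 190 to 263), a log2 ratio of -1.90 (interval -2.15 to -1.66). A Cyp1a1 UMI was found in 88.7% of control and 38.3% of TBL/RβKO cells, and the median cell had 7.29 and 0 UMIs per 10000. The groups overlapped, with highest values of 45.7 and 30.6 UMIs per 10000. In cells thinned to 3000 UMIs the shares were 74.2% (interval 61.5 to 84.5%) and 25% (13.2 to 40.3%), whereas 0 of 298 thinned hormone barcodes had a UMI in either library. Hormone barcodes had 0.0585 and 0.0635 CPM and macrophage-like barcodes 0 CPM in both libraries. Stromal-like barcodes held 5 UMIs in control (8.59 CPM) and 197 in TBL/RβKO (52.7 CPM), where the endothelial cells held 155. The ratio was -2.34 (-2.70 to -1.99) in cells without a mural UMI and -2.31 at matched depth, and it lay between -2.53 and -1.76 in the 14 alternatives computed.

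Other AHR pathway genes were looked up after these values had been seen. Apart from Cyp1a1 there were 6, of which 3 could be compared, 1 of them 2-fold lower and 0 higher (1.8% and 0.678% of all compared genes). Of the 3 with too few UMIs to compare, Cyp1b1 had 0 UMIs in control and 5 in 1 TBL/RβKO cell. Ahrr had 6 and 0 UMIs, and the third was Nqo1, given below. Tiparp, a mono-ADP-ribosyltransferase induced by AHR, was at 68.0 and 31.8 CPM (-1.09, interval -1.82 to -0.43), with a ratio of -1.56 without mural UMIs. Ahr itself was at 52.2 and 52.1 CPM (-0.00, -0.60 to 0.57), and its partner Arnt at 84.4 and 62.2 CPM (-0.44, -0.97 to 0.06). Without mural UMIs the ratio was 0.79 (-0.20 to 1.85) for Ahr and -1.45 (-2.27 to -0.68) for Arnt. At matched depth the ratios of Ahr and Arnt were 0.43 and -1.40. Nqo1, which AHR and NRF2 both induce, was at 31.1 and 14.5 CPM (-1.10, -2.24 to -0.11), from 53 and 10 UMIs.

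The promoters of Cyp1a1 and Tiparp are shown because these 2 genes were lower together. Each sequence is 300 bases, from 250 before to 50 after the RefSeq start on GRCm38.p6, plus strand, at chr9:57697363-57697662 and chr3:65528197-65528496. Capitals mark GCGTG or its reverse complement CACGC, the core of the AHR response element, searched on both strands.
Cyp1a1: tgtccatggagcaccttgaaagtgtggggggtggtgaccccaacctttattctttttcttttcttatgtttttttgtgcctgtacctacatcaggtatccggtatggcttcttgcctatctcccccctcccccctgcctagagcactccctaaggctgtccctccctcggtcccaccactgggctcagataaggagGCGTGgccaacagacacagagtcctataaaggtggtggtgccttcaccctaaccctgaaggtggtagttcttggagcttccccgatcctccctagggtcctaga
Tiparp: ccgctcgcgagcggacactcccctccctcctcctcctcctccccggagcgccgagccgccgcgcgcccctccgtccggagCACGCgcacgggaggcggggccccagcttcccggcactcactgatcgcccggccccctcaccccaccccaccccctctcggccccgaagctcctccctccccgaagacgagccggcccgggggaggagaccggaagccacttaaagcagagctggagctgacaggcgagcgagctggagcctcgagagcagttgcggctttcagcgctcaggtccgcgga
Each window held 1 match, and 32.4% of the 32851 mouse promoters of this length in the same table held at least 1, so that the match does not set these genes apart.

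Apln (chrX:47114019-47123775, minus strand) encodes apelin, which tip cells secrete. It had 323 UMIs in control (189 CPM, interval 169 to 211) and 17 in TBL/RβKO (24.6 CPM, interval 14.3 to 39.4), a log2 ratio of -2.94 (-3.74 to -2.24). A UMI was seen in 32 of 62 control cells (51.6%) and 4 of 47 TBL/RβKO cells (8.51%), and after thinning in 27.4% and 6.82%. Its ratio was -3.91 (-5.83 to -2.47) without mural UMIs and -3.87 at matched depth. The apelin receptor gene Aplnr was higher, at 29.9 CPM in control and 94.1 CPM in TBL/RβKO (1.65, interval 1.10 to 2.21), although similar shares of cells, 19.4% and 21.3%, had a UMI. In hormone barcodes Apln was at most 0.027 CPM and Aplnr at most 0.0381 CPM.

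The other tip cell markers with enough UMIs to compare did not differ 2-fold as Apln did. Of 10 compared, Apln alone differed 2-fold (2.48% of all compared genes did), and the median log2 ratio was -0.09. Pgf, on the same list but with too few UMIs to compare, was lower, at 28.1 and 11.6 CPM from 48 and 8 UMIs. Esm1, a proteoglycan of sprouting endothelium, was at 3414 and 2889 CPM (-0.24), with a per-cell median of 31.8 and 22.2 UMIs per 10000. Cxcr4, the receptor of Cxcl12, was at 563 and 486 CPM (-0.21), and the potassium channel subunit Kcne3 at 380 and 511 CPM (0.43). At least 3 of 12 tip cell markers were seen in 62 of 62 control and 45 of 47 TBL/RβKO cells.

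**Figure D5:**
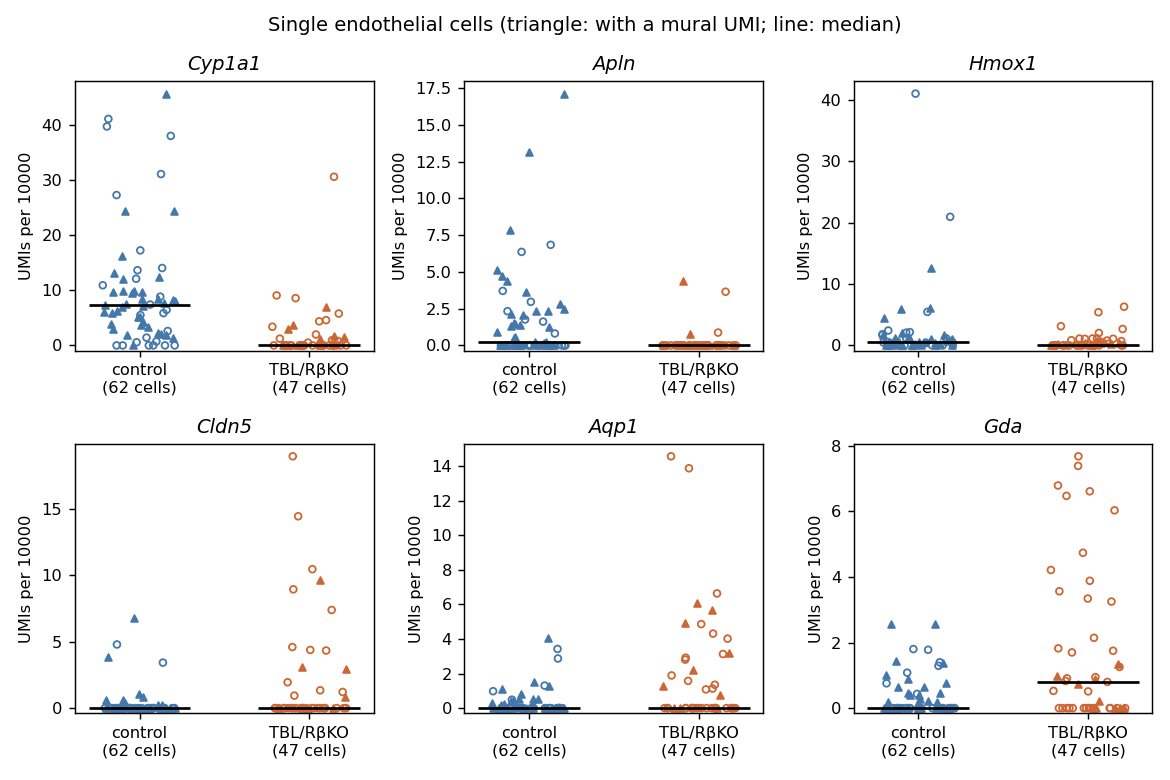
UMIs per 10000 in each endothelial cell (62 control in blue, 47 TBL/RβKO in orange) for 3 genes that were lower and 3 that were higher in TBL/RβKO. Triangles are cells with a mural UMI and lines are medians, which for Cyp1a1 are 7.29 and 0, and the groups overlap in every panel.

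Hmox1 (chr8:75820241-75827217, plus strand), haem oxygenase 1, which degrades haem and is induced by oxidative stress, was at 182 CPM in control and 47.8 CPM in TBL/RβKO endothelial cells (-1.93, interval -2.50 to -1.41). A UMI was found in 67.7% and 46.8% of cells, and 31.5% of the control UMIs lay in 1 cell. Its ratio was -2.38 without mural UMIs and -2.76 at matched depth. The size of these ratios rested in part on 2 control cells, which held 98 and 58 of the 311 control UMIs, the first of them the cell of 77763 UMIs that also held most macrophage marker UMIs. Without these 2 cells the ratio was -1.01 (interval -1.60 to -0.46) over all cells, -1.22 (-2.05 to -0.44) without mural UMIs and -1.47 (-2.42 to -0.59) at matched depth. Macrophage-like barcodes carried Hmox1 at 2829 and 2913 CPM. Srxn1, sulfiredoxin, another oxidative stress gene that was picked after its value was seen, was at 80.3 and 33.3 CPM (-1.27, -1.98 to -0.63) and had a ratio of -1.77 without mural UMIs.

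Notch and vessel type genes were mixed. Of 14 Notch pathway genes compared, 1 was 2-fold higher and 1 lower (0.678% and 1.8% of all compared genes), with a median of -0.05. Hey1, a Notch target of arterial endothelium, was at 71.0 and 162 CPM (1.19, interval 0.81 to 1.58) and had the same direction without mural UMIs (1.18) and at matched depth (1.48). Heyl, at 81.5 and 36.2 CPM, had no UMI in cells without mural UMIs in either group. The ligand Dll4 was at 443 and 404 CPM, Notch1 at 320 and 304 CPM. Arterial markers had a median of 0.30 over 9 genes, with Hey1 alone past 2-fold (0.678% of all compared genes were 2-fold higher).

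Of 17 endothelial transcription factors, 0 were 2-fold higher and 2 lower (0.678% and 1.8% of all compared genes). They were Heyl and the flow-induced factor Klf2, at 496 and 237 CPM (-1.06, interval -1.31 to -0.82; -0.85 without mural UMIs and -1.44 at matched depth). The related factor Klf4, which flow also induces, was at 290 and 178 CPM (-0.70). Nr2f2, which specifies veins, was at 101 and 53.6 CPM (-0.92), while Fli1, of the ETS family, was at 159 and 243 CPM (0.61).

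Of 9 fenestra and caveola genes, 0 were 2-fold higher and 2 lower (0.678% and 1.8% of all compared genes). Plvap (chr8:71948674-71964506, minus strand), the diaphragm protein of fenestrae, was at 1407 CPM in control and 1750 CPM in TBL/RβKO (0.32, interval 0.21 to 0.42). Cav1, the structural protein of caveolae, was lower at 150 and 65.1 CPM (-1.20, -1.69 to -0.74), as was its partner Cav2 at 58.1 and 24.6 CPM (-1.24, -2.07 to -0.49). Their ratios were -1.68 and -1.10 without mural UMIs and -1.19 and -0.78 at matched depth. Caveola coat genes were closer to 0, with Cavin1 at 141 and 97.0 CPM (-0.54) and Cavin3 at 259 and 226 CPM (-0.20).

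Of 17 secreted endothelial signals, 1 was 2-fold higher and 3 lower (0.678% and 1.8% of all compared genes), with a median of -0.30. Besides Apln, the matricellular proteins Ccn1 (232 and 92.6 CPM, -1.32) and Ccn2 (348 and 124 CPM, -1.48) were lower. Ccn1 was also lower without mural UMIs (-1.33) and at matched depth (-1.84), and Ccn2 was seen there in few cells, 20.0% of control and 5.41% of TBL/RβKO without mural UMIs. Tgfb2 was higher at 35.8 and 91.2 CPM (1.35), with 0 and 28 UMIs in cells without mural UMIs. Igfbp5, at 2574 and 1747 CPM (-0.56), and Igfbp7, at 4458 and 5489 CPM (0.30), differed by less than 2-fold.

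The list of lipid and fatty acid handling genes had 1 gene higher and 3 lower of 10 (0.678% and 1.8% of all compared genes). The higher gene was Aqp1, the water channel given above, which was on the list but is not counted here as a lipid handling gene. The lower genes were Fabp5 (-1.49), a fatty acid carrier, Lpl (-1.04), lipoprotein lipase, and Cd36 (-5.58), a fatty acid transporter. Of the 118 control UMIs of Cd36, 94.9% lay in 1 cell, and the ratio of Fabp5 was -0.36 (interval -1.45 to 0.71) without mural UMIs. Gpihbp1, which carries lipoprotein lipase to the capillary lumen, was at 694 and 1160 CPM (0.75, 0.61 to 0.88), and Fabp4 at 956 and 689 CPM (-0.47).

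Interferon response genes had a median of 0.33 over 9 genes. Ly6e was 2-fold higher at 68.0 and 156 CPM (1.20, interval 0.81 to 1.59; 1.15 without mural UMIs), and Ifitm3, which restricts virus entry, was at 552 and 970 CPM (0.81, 0.67 to 0.96). Rsad2, also interferon-induced, was lower at 149 and 60.8 CPM (-1.29), but not in cells without mural UMIs (0.23). Of 13 antigen presentation genes, 0 were 2-fold higher and 4 lower (1.8% of all compared genes were), all of class II. B2m, the light chain of class I molecules, was at 875 and 968 CPM (0.15). Leukocyte adhesion genes had a median of 0.35 over 9 genes and venous markers of 0.64 over 5. Selp alone was past 2-fold in each (0.678% of all compared genes were 2-fold higher).

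A number of large ratios rested on single cells and are given as values of those cells. Of the 442 Apoe UMIs in control endothelial cells, 94.6% lay in 1 cell of 77763 UMIs, which also held 91.7% of the control UMIs of 12 macrophage markers (283 CPM in control and 82.5 CPM in TBL/RβKO) and 95.2% of those of class II antigen presentation genes. In TBL/RβKO, 1 cell of 3193 UMIs held 27 of the 36 Apoe UMIs (75%), 71.9% of the macrophage marker UMIs and all 83 class II UMIs. Apoe was at 259 and 52.1 CPM over all cells (-2.31), with 1 and 34 UMIs in cells without mural UMIs. In TBL/RβKO, 1 further cell held 99.8% of the 1982 UMIs of 5 red blood cell genes, and 1 other cell held all 114 UMIs of Selp, the P-selectin of venous endothelium, 63 of the 65 UMIs of Ackr1, another venous gene, and 11 of Vwf. In control, 1 cell held all 14 Selp UMIs.

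Another part of the lower genes moved with the mural UMIs themselves. Lsamp, an adhesion molecule, had 112 UMIs in control and 3 in TBL/RβKO (-3.92, interval -6.22 to -2.33) but 1 and 0 in cells without mural UMIs. The same subset held 0 and 1 UMIs of Mustn1 (135 and 10 in all cells), 0 and 0 of Rgs6 (121 and 9), 1 and 1 of Rasd1 (127 and 14), 0 and 1 of the chloride channel Ano1 (134 and 16) and 0 and 0 of the sphingosine-1-phosphate receptor S1pr3 (134 and 16). Gdf15, a stress-induced hormone, had 123 and 4 UMIs in all cells and 5 and 0 in this subset, and the ratio of Basp1 was -2.25 in all cells and -0.10 in this subset. Of 10 pericyte markers 3 were 2-fold lower (1.8% of all compared genes were), among them Rgs5 (249 and 104 CPM) and Acta2 (78.6 and 36.2 CPM), and 1 was higher. That gene, Kcnj8, a potassium channel subunit, was at 91.5 and 200 CPM (1.13) and was higher without mural UMIs too (1.25).

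The hormone transcripts Ins1 and Pyy in endothelial cells were lower and higher as they were in the endocrine cells. Ins1 was at 1602 CPM in control and 213 CPM in TBL/RβKO endothelial cells (-2.91), with 110934 and 22840 CPM in hormone barcodes and 2593 and 298 CPM in macrophage-like barcodes. Pyy was at 112 and 428 CPM (1.94), with 10901 and 38340 CPM in hormone barcodes. Endothelial cells held 1.44% of the hormone barcode level of Ins1 in control and 0.932% in TBL/RβKO, and 1.03% and 1.12% of that of Pyy. Hs6st3, Ptprn2 and Cacnb2 (log2 ratios of -2.44, -2.23 and -2.14) were also below their level in hormone barcodes, but there they were higher in TBL/RβKO, with 740 and 1526 CPM, 907 and 1491 CPM, and 432 and 636 CPM. Their control level in endothelial cells was 14.8%, 12% and 14.8% of that in hormone barcodes, a larger share than that of Ins1. Ero1b (-2.43), at 683 and 256 CPM in hormone barcodes, was at 7.98% of that level in control. A single control cell held 61.5% of the Hs6st3, 36.2% of the Ptprn2, 37.6% of the Ero1b and 19.3% of the Cacnb2 UMIs. Counted with the same condition, 43 genes with intervals above 0 and 44 with intervals below 0 were at such levels, compared with 425 and 463 that were above it.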

How the data were processed

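Both libraries were deposited by the authors as raw UMI counts per gene and barcode, made with Cell Ranger 7.1.0 (GRCm39 and mm39 in the submitters' processing notes) from reads of 10x 3′ v3.1 libraries, with Cre sequences added as features. The study's methods describe removal of the ambient RNA profile and sctransform normalisation for its own analysis, and the deposited values are whole numbers, to which no normalisation had been applied. Whether the ambient step went into them is not given in the sources used here. The control library held 241434108 counts in 7067 barcodes and the TBL/RβKO library 185062206 in 5833. Barcodes were kept with more than 1000 genes and under 10% mitochondrial counts, and the study's own limits of 2500 to 6000 genes were an alternative. No doublet caller was run, and doublets of endothelial with mural cells were not tested for. Doublets with endocrine cells were limited by the hormone limit, and an alternative left out members with at least 3 markers of a second cell type. The libraries shared 14 barcodes, of which 0 were members.

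Counts were summed over members and expressed as CPM in Python 3.11.15 (numpy 2.4.6, scipy 1.17.1, pandas 2.3.3, matplotlib 3.10.9), with exact intervals at 95% and no test, since each group had 1 library. The ratios and intervals were tested on simulated data. Genes with at least 100 counts over both libraries were compared, and a difference of 2-fold was used as a threshold of size. Where a gene had no count in 1 group, counts are given in place of a ratio. Thinning used 3000 UMIs per cell with a fixed seed, and 300 hormone barcodes per library. Macrophage-like and stromal-like barcodes had at least 4 of 6 markers (C1qa, C1qb, C1qc, Csf1r, Adgre1, Cd68; Col1a1, Col1a2, Col3a1, Dcn, Lum, Pdgfra) and were under the hormone limit; β- and α-cells were hormone barcodes led by insulin or Gcg.

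Named genes were the 12 highest and 12 lowest ratios among genes whose interval excluded 0, with a UMI in at least 20% of members of the library where they were higher and a CPM above that of its hormone barcodes. Of these, 1 gene is not reported here, and neither is 1 gene of the lists. From lists, genes past 2-fold and those with most counts were named. The 5 largest each way that failed only the condition on hormone barcodes were named as free RNA level. The members and the 38 gene lists were chosen with earlier results of these data known. The AHR and mural cell lists, the sets without a mural UMI and at 6000 to 20000 UMIs, and single genes named as picked later were added after the values had been seen. Positions are from GENCODE M39 on GRCm39 by Ensembl identifier (529 of 529 found), and promoters from RefSeq on GRCm38.p6. Tbl1y, Cor2a and Xist were not analysed here.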

Additional observations from a re-analysis of the deposited data

Results flagged for a closer look

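Barcodes with at least 4 of the 6 endothelial markers also occurred outside the rule, and these were used in no comparison. In the control library 9 kept barcodes, and in the TBL/RβKO library 9 kept barcodes, had the markers but were at or over the hormone limit. Their median depth was 69955 UMIs in control and 67091 UMIs in TBL/RβKO, and their median hormone level 3349 and 1966 UMIs per 10000. In the TBL/RβKO library 4 further barcodes had the markers and were under the hormone limit but failed the filter on genes or mitochondrial UMIs, with a median depth of 1135 UMIs. The control library had 0 such barcodes.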

How the results depend on the processing

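No paired analysis was possible because each group had 1 library. Leaving out members with a second cell type put the endothelial share of kept barcodes at 0.443% in control and 0.538% in TBL/RβKO. The control share of barcodes under the hormone limit was 13.9% with the study's filter, 29.3% with under 5% mitochondrial UMIs, 35.8% with a hormone limit of 200 and 6.71% without a second cell type, and the TBL/RβKO share was 8.62%, 7.53% and 2.82% under the last 3 of these. Genes 2-fold higher numbered 123 with at least 30 UMIs, 10 with at least 300, 73 with means over cells, 144 with at least 3 markers, 14 without a second cell type and 10 after thinning. Genes 2-fold lower numbered 367 with at least 30 UMIs, 20 with at least 300, 150 with means over cells, 21 without a second cell type, 8 after thinning, 27 at matched depth and 26 without mural UMIs, the number compared changing with the members or UMIs used. With at least 3 markers, 17 of the 85 lower genes changed direction, among them Basp1 (0.14), Hs6st3 (0.044), Ptprn2 (0.31) and Cacnb2 (0.38). The 8 TBL/RβKO barcodes with 3 markers that this setting added were deep, with a median of 53029.5 UMIs against 11018 in the TBL/RβKO members. They had a median of 9.5 marker UMIs, and their part in these reversals was not tested. Apoe reversed with means over cells (0.93), the study's filter (1.02), no second cell type (2.96), thinning (1.17), matched depth (0.61) and no mural UMI (4.99). Cyp1a1, Apln, Cldn5, Aqp1 and Gda stayed past 2-fold in all 14 alternatives computed for them and Hmox1 in 13. Of 13 alternatives, Cdk8, Rnf125, Slc45a4 and Pde7b stayed past it in all and Aplnr and St8sia6 in 12. All these genes were named for large ratios in the same members that the alternatives reused. Members numbered 61 and 45 with under 5% mitochondrial UMIs and 62 and 45 with at least 5 markers. These counts were therefore largely set by the choice of genes and are no independent support. Without the 2 cells with most UMIs of the gene, an alternative chosen after seeing the data, the ratio over all cells was -1.76 for Cyp1a1, -2.54 for Apln, -1.01 for Hmox1, 1.76 for Cldn5, 2.01 for Aqp1 and 1.54 for Gda. Depth limits all values for genes under 100 UMIs.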

Other observations

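Genes of the amino acid and integrated stress response, whose transcription factor is ATF4, were picked after their values had been seen. Of 22 such genes 14 could be compared, of which 0 were 2-fold higher and 5 lower (0.678% and 1.8% of all compared genes). Their median log2 ratio was -0.85. Without mural UMIs, 13 had at least 30 UMIs, of which 3 were 2-fold lower, and the median was -0.65. Atf4 itself was at 566 CPM in control and 336 CPM in TBL/RβKO endothelial cells (-0.75, interval -0.97 to -0.55). Atf5 was at 142 and 53.6 CPM (-1.41), Mthfd2, a mitochondrial folate enzyme, at 139 and 62.2 CPM (-1.16), the arginine transporter Slc7a1 at 87.4 and 42.0 CPM (-1.06) and asparagine synthetase Asns at 128 and 68.0 CPM (-0.91). Ddit4 was at 115 and 126 CPM (0.13). Without mural UMIs the ratios were -1.71 for Mthfd2, -1.96 for Slc7a1, -0.99 for Asns and 0.43 for Ddit4, and Atf5 had only 19 and 3 UMIs, in 6 and 3 cells.

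YAP and TAZ target genes were looked up after the values of Ccn1 and Ccn2 had been seen. Of 10 such genes 6 could be compared, of which 0 were 2-fold higher and 2, Ccn1 and Ccn2, lower (0.678% and 1.8% of all compared genes). The median log2 ratio of the 6 was -0.61. The other compared genes were Lats2 (101 and 110 CPM, 0.13), Amotl1 (243 and 229 CPM, -0.09), Crim1 (242 and 206 CPM, -0.23) and Axl (69.2 and 34.7 CPM, -0.99). Axl had 0 UMIs in cells without a mural UMI in either group.

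Other genes picked after their values were seen had many UMIs. Ldb2, a LIM domain-binding cofactor, was at 266 CPM in control and 611 CPM in TBL/RβKO endothelial cells (1.20, interval 1.01 to 1.40) and had a ratio of 1.51 without mural UMIs. Cmss1, a ribosomal small subunit homologue, was at 1401 and 3470 CPM (1.31), and its ratio was 0.78 without mural UMIs. Hormone barcodes held 573 and 822 CPM, but not all cell types were higher. The level was 380 and 342 CPM in β-cells and 707 and 497 CPM in stromal-like barcodes, against 1531 and 2109 CPM in α-cells.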
